A study of Rattus norvegicus with 4 samples.

Results

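Sites of the rat hippocampal genome that carried reads of the glucocorticoid receptor (GR) after both a low dose (300 µg/kg) and a high dose (3000 µg/kg) of corticosterone are described here. They were chosen on the read counts themselves. Each read's start was moved 75 bases in its own direction, and reads were counted in consecutive bins of 500 bases on chromosomes 1 to 20 and X. A bin was kept with at least 7 GR reads at the high dose, at least 4 GR reads at the low dose and at most 2 IgG reads over both doses. The rule kept 405 bins of 5437350, or 0.00745%, and directly adjacent bins were joined into 400 regions, of which 395 were a single bin and 5 were a pair of bins. Since these counts chose the regions, they are given as a description and no test was made on them. Positions refer to rat build rn4, counted from 1. The regions are given by position, without gene names.

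GR is a nuclear receptor that waits in the cytoplasm with chaperone proteins until a glucocorticoid binds it, and then enters the nucleus and binds DNA. It binds as a dimer to glucocorticoid response elements, and it also reaches chromatin through other transcription factors. Corticosterone is the main glucocorticoid of the rat. The hippocampus is rich in GR and in the mineralocorticoid receptor, which has the higher affinity for corticosterone, so that GR there is thought to be filled mostly when the hormone is high, as after stress or at the daily peak.

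The animals were male Sprague-Dawley rats of 8 weeks. Their adrenal glands, the source of corticosterone, had been removed, and 3 days later they were injected intraperitoneally with 300 or 3000 µg/kg corticosterone complexed with hydroxypropyl-cyclodextrin and killed after 1 hour. Each dose had 6 animals, but sheared chromatin of 6 hippocampal hemispheres of a group was pooled and then divided between antibodies, so each library represents a pool of tissue. At each dose 1 library was made with the GR antibody H-300 and 1 with normal rabbit IgG, which measures the background, and there was no replicate. A group left without corticosterone is named in the labels and was not analysed here. Each of the 4 libraries held 468802 reads of 36 bases, of which 458480 to 461308 lay on the chromosomes used, a mean of 0.0843 to 0.0848 reads per bin. Intervals below are exact 95% intervals (Clopper-Pearson for shares and ratios, Poisson for reads per bin). They cover counting error only, and they are too narrow where both ends of a fragment were sequenced and counted.

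The regions held 6052 GR reads at the high dose and 2513 at the low dose. These were 1.31% (1.28 to 1.35%) and 0.547% (0.526 to 0.569%) of the reads of those libraries, in 0.00745% of the bins. The IgG libraries held 174 reads there at the high dose and 89 at the low dose. A region held 7 to 74 GR reads at the high dose with a median of 12, and 4 to 24 at the low dose with a median of 5. Most regions were thus weak, and 228 of 400 held only 4 or 5 reads at the low dose. At the upper end, 83 regions held 20 or more GR reads at the high dose, 50 held 10 or more at the low dose and 47 held 10 or more in each GR library. No IgG read was found in 210 regions, 1 in 117 and 2 in 73. Although capped by the rule, IgG still reached 0.430 reads per bin at the high dose, 5.09 times the mean of its library, and 0.220 at the low dose, 2.61 times the mean. GR stood at 14.9 and 6.21 reads per bin, 176.1 and 73.5 times the library mean.

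With the antibodies exchanged, the same thresholds kept 10 bins (0.000184%), in which IgG took the place of GR. The thresholds cut through a continuous range of counts. Just inside the high-dose threshold lay 63 bins with 7 GR reads at the high dose, and just outside it 61 bins with 6 reads that met the other conditions. Just inside the low-dose threshold lay 132 bins with 4 reads at the low dose, against 224 with 3 reads just outside. The IgG limit kept 73 bins with 2 IgG reads and left out 36 with 3. Membership also depended on where bins began: with bins starting at position 250, 386 regions were found, and 263 of the 400 (65.8%) were overlapped by one of them.

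The IgG limit also left out some positions with many GR reads at both doses. In all, 79 bins met both GR thresholds but held more than 2 IgG reads, with a median of 17 GR reads at the high dose, and in 73 of them GR exceeded the IgG library of the same dose at both doses. The highest, chr8:52001001-52001500, held 78 GR reads at the high dose and 19 at the low dose against 2 IgG reads at each dose. Others of this kind, chosen after their values were seen, were chr20:27271001-27271500 with 49 and 23 GR reads against 4 and 2 IgG reads, and chr10:55856001-55856500 with 39 and 25 against 1 and 2. The regions described here are therefore the shared sites under the IgG limit and not all shared sites.

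Sites above threshold at one dose were mostly below it at the other. At most 2 IgG reads and 7 or more GR reads at the high dose were found in 2128 bins (0.0391% of all bins), and 405 of these, 19.03% (17.4 to 20.8%), also met the threshold at the low dose. In the other direction, 2106 bins (0.0387%) held 4 or more GR reads at the low dose, and the same 405 bins were 19.2% (17.6 to 21.0%) of them. The share was larger among stronger sites. Of 1256 bins with 7 to 9 GR reads at the high dose, 11.4% (9.68 to 13.3%) held 4 or more reads at the low dose. The share was 19.96% (16.7 to 23.6%) with 10 to 14 reads, 36.6% (29.8 to 43.9%) with 15 to 19 and 54.8% (44.2 to 65.2%) with 20 to 29. Among the 37 bins with 30 to 74 reads, 31 were shared (83.8%, 68.0 to 93.8%), and none held 0 reads at the low dose. Bins with 0 reads at the low dose made up 38.2% of the weakest class. The mean of GR reads at the low dose rose over the classes as well, from 1.445 to 2.053, 3.147, 5.032 and 9.811. A fixed limit of 4 reads is met more readily where counts are higher. The shares therefore do not show that weak sites were bound at the high dose only. The intervals of neighbouring classes did not overlap, but the rule used both of these counts, so this is a description and not a test.

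**Figure D1:**
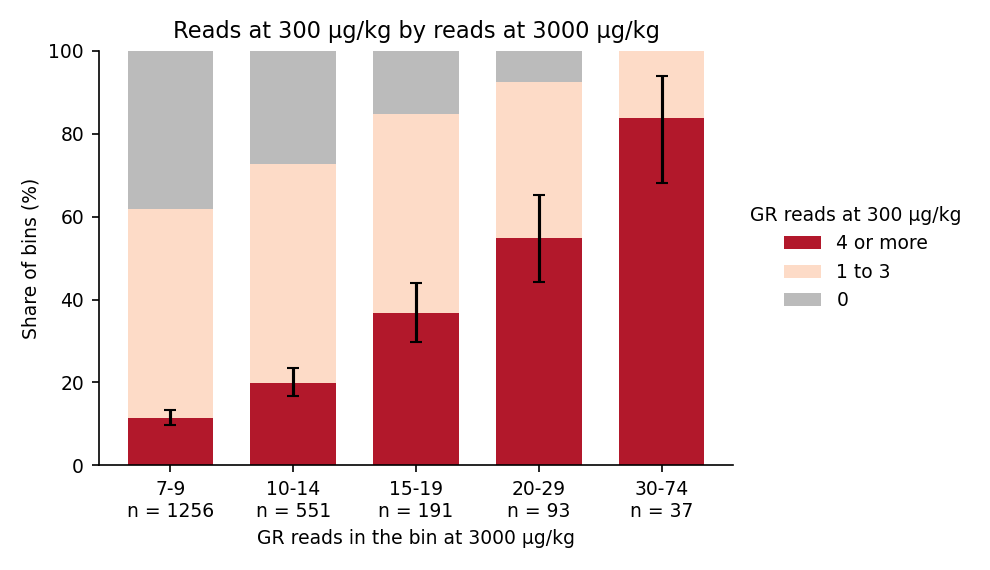
Bins with 7 or more GR reads at the high dose and at most 2 IgG reads, in classes of GR reads at the high dose (x axis), divided by their GR reads at the low dose (y axis, share of bins in %). Error bars are exact 95% binomial intervals of the share with 4 or more reads, which goes from 11.4% in the weakest class to 83.8% in the strongest.

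Seen from the low dose, the share also went with the strength of the site. Bins with 4 GR reads at the low dose numbered 1492, and 8.85% (7.46 to 10.4%) of them reached 7 reads at the high dose, while 57.3% held 0 reads there. Of the 353 bins with 5 reads, 28.6% (24.0 to 33.6%) were shared, and of the 172 with 6 or 7 reads, 55.2% (47.5 to 62.8%). Among the 48 bins with 10 to 24 reads at the low dose, 47 were shared (97.9%, 88.9 to 99.95%), with a median of 27.5 GR reads at the high dose. Strong positions at the low dose were thus nearly always above threshold at the high dose, and weak ones seldom were. Here too a fixed limit, of 7 reads, is met more readily where counts are higher.

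Across the 400 regions the counts at both doses went together only in part. The rank correlation was 0.354 (Spearman) and Pearson's r was 0.610, given as a description over regions of the same library pair that had been cut off at 7 and 4 reads. The plot of reads by dose shows the crowding of regions at both thresholds.

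**Figure D2:**
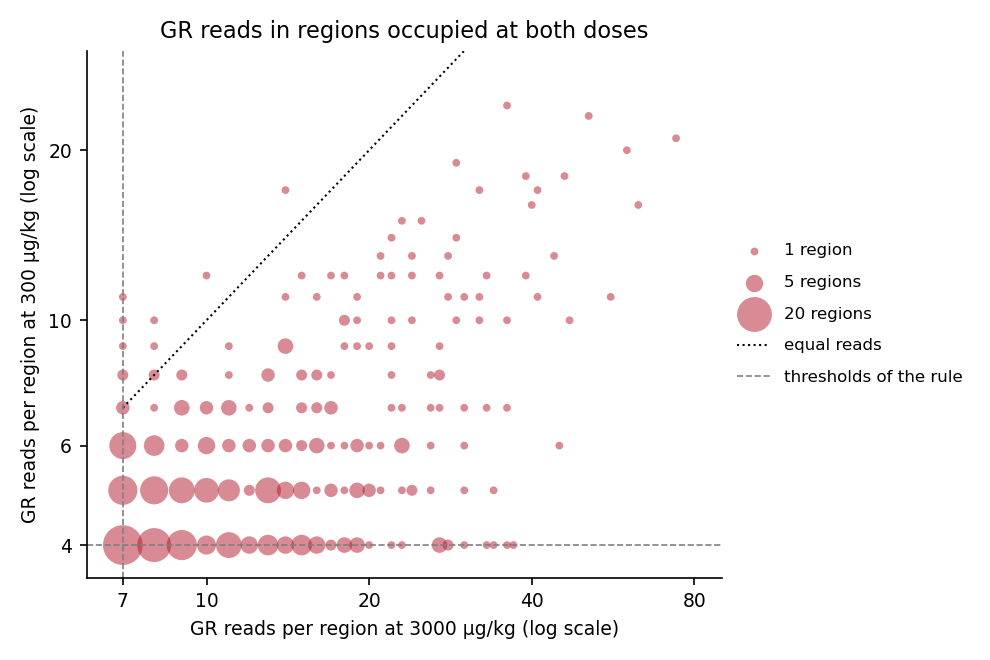
GR reads per region at the high dose (x axis, log scale) and at the low dose (y axis, log scale) for the 400 regions; the area of a point gives the number of regions with those counts. Dashed lines are the thresholds of 7 and 4 reads and the dotted line is equal counts, above which 9 regions lie.

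The regions with most GR reads at the low dose were also strong at the high dose. The highest count at the low dose was found at chr11:77875501-77876000, where 24 GR reads at the low dose and 36 at the high dose stood against 0 IgG reads at either dose. At chr1:226343001-226343500 the GR libraries held 23 reads at the low dose and 51 at the high dose, with 1 IgG read at the high dose. The region chr1:118371501-118372000 held 21 and 74 GR reads, the latter being the highest high-dose count of all regions, with 2 IgG reads at the high dose and 0 at the low dose. It was followed by chr1:77410001-77410500 with 20 GR reads at the low dose and 60 at the high dose, and by chr8:52017501-52018000 with 19 and 29. Over the 10 regions with most reads at the low dose, that library held 17 to 24 reads, the GR library at the high dose 14 to 74 and both IgG libraries together 0 to 2. All of them held more reads at the high dose except chr8:46273001-46273500, with 17 GR reads at the low dose and 14 at the high.

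Of the 10 regions with most GR reads at the high dose, 4 were also among the 10 with most at the low dose. The tenth place was tied at 41 reads, and with chr4:10322501-10323000 (41 and 17 reads, 2 IgG reads) in place of the region with fewer IgG reads the overlap was 5. The set of 10 held 41 to 74 reads at the high dose and 6 to 23 at the low dose. The region chr1:226414501-226415500, a pair of joined bins, held 63 GR reads at the high dose and 16 at the low dose and no IgG read. By contrast, chr2:180113001-180113500 held 56 and 11 GR reads, chr20:6659501-6660000 held 47 and 10, and chr16:60810501-60811000 held 45 and 6. These 3 regions had 1, 1 and 2 IgG reads at the high dose and 0 at the low dose. With 46 reads at the high dose chr1:190275501-190276000 held 18 at the low dose, but its ratio of doses of 2.54 (1.45 to 4.66) overlapped in its interval with the 7.46 (3.17 to 21.4) of the region on chromosome 16.

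More GR reads at the high than at the low dose were counted in 386 of the 400 regions, equal numbers in 5 and fewer in 9. The sum of reads was 2.397 times as high at the high dose (2.29 to 2.51) at equal library size, and the median of the regions was 2.16, with quartiles of 1.66 and 2.99. The thresholds of 7 and 4 reads by themselves placed the counts of the doses in this order at most weak regions. The low-dose threshold also left out bins with few reads at that dose, which lowers the ratio. All bins with 7 to 9 GR reads at the high dose and at most 2 IgG reads held a mean of 1.445 at the low dose. The ratio is thus that of the chosen regions and not of all GR sites at the high dose. With 1 library per dose, the dose and the immunoprecipitation cannot be told apart in these ratios, nor can the share of hippocampal cells bound and the occupancy per cell. For single regions the precision was low. The interval of the ratio lay above 1 in 117 regions, below 1 in none and included 1 in 283. Under the rule a region with fewer than 7 reads at the low dose could not hold fewer at the high dose. These numbers are thus no test of the direction of the doses.

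**Figure D3:**
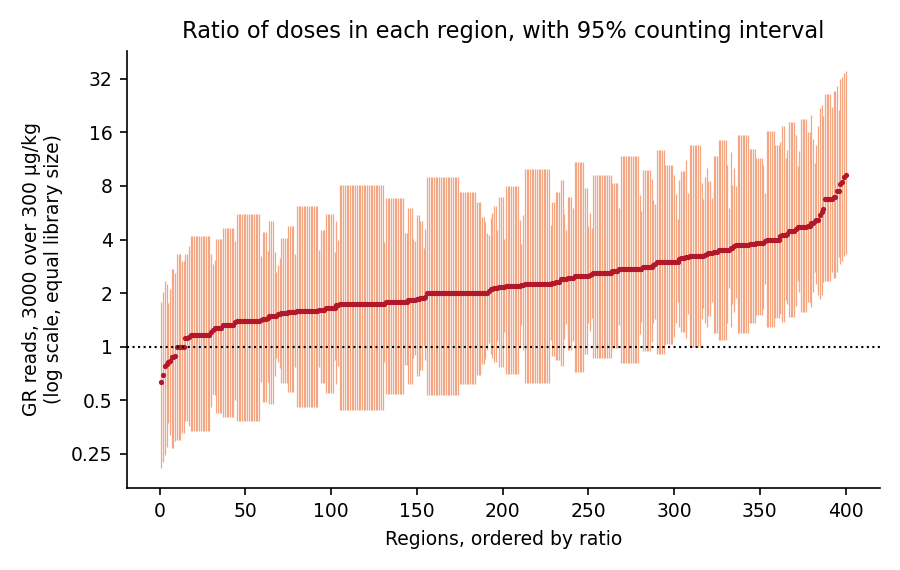
Ratio of GR reads at the high over the low dose at equal library size (y axis, log scale) in each of the 400 regions, ordered by the ratio (x axis). Points are ratios and vertical lines are exact 95% counting intervals. The ratios run from 0.633 to 9.21, and no interval lies wholly below 1, which the thresholds of the rule fixed in part.

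At the low end of this range the counts of the doses were close. The lowest ratio, 0.633 (0.208 to 1.79), was that of chr17:82426001-82426500, with 7 GR reads at the high dose, 11 at the low dose and no IgG read. Next came chr15:44506501-44507000 with 7 and 10 GR reads, chr6:3748501-3749000 with 7 and 9 and chr12:12054501-12055000 with 8 and 10, and all intervals included 1. Among the regions with 10 or more reads in each GR library, the ratio ran from 0.820 to 5.07 with a median of 2.14. Within this set, chr11:77875501-77876000 had a ratio of 1.49 (0.867 to 2.62), and chr1:118371501-118372000 one of 3.51 (2.14 to 6.00).

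The 4 highest ratios belonged to regions at the low-dose threshold. The first were 9.21 (3.31 to 35.6) at chr2:141475501-141476000, where 37 GR reads at the high dose stood against 4 at the low dose, and 8.96 (3.21 to 34.7) at chr18:52267501-52268000 with 36 against 4. The regions chr5:167006001-167006500 and chr19:56625001-56625500 followed with 34 and 33 reads against 4 each. The fifth place was shared at a ratio of 7.46 by chr7:10561501-10562000, with 30 against 4 reads, and chr16:60810501-60811000, with 45 against 6. All of these but the region on chromosome 16 had exactly the least count that the rule allows at the low dose, which bounds the ratio from above for a given count at the high dose. In the regions on chromosomes 2 and 16 the low-dose reads were scattered, with a spread (SD) of 266.4 and 237.7 bases against 95.4 and 56.6 at the high dose. Their minus-strand reads at the low dose started before the plus-strand reads on average. In the others the spread at the low dose was 37.6 to 125.4 bases.

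The 500 bases on each side of a region are not free of the rule, since adjacent bins that met it were joined to the region and each bin beside one had failed it. A bin with many GR reads at the high dose stayed outside only with fewer than 4 at the low dose or more than 2 IgG reads, which can raise the ratio of doses there. Beside chr1:136833001-136833500, for example, lay 28 GR reads at the high dose and 2 at the low dose, a region chosen after its values were seen. The bins on each side held 1036 GR reads at the high dose and 366 at the low dose, a ratio of 2.82 (2.50 to 3.18), and 196 and 156 IgG reads. The ratio of GR to IgG there was 5.26 (4.51 to 6.16) at the high dose and 2.34 (1.94 to 2.84) at the low dose. More GR than IgG reads lay beside 236 regions at the high dose and beside 158 at the low dose, and fewer beside 41 and 62.

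Where reads lay within a region did not enter the rule, apart from the limits of the bin. The mean position of the GR reads within 500 bases of the region's middle was therefore compared between the doses. The median distance between these centres was 33.3 bases, with quartiles of 15.1 and 65.6 bases. They lay within 50 bases of each other in 264 of 400 regions (66.0%, 61.1 to 70.6%) and within 100 bases in 353. The centre at the low dose lay on the lower-coordinate side in 200 regions and on the other side in as many. In the 47 regions with 10 or more reads in each GR library the median distance was 23.9 bases, and the centres lay within 50 bases in 38 of them. At chr1:77410001-77410500, with 60 and 20 reads, the centres were 5.1 bases apart, and at chr1:118371501-118372000 they were 6.3 bases apart.

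In 13 regions the centres lay more than 150 bases apart. Of these, 12 held only 4 or 5 GR reads at the low dose, and the largest distance, 241.5 bases, was found at chr3:159162501-159163000 with 7 and 4 reads. The exception, chr8:65664501-65665000, held 18 GR reads at the high dose and 10 at the low dose, with centres 179.5 bases apart. In that region a further 15 GR reads at the high dose, but 1 at the low dose, lay in the 500 bases on each side.

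Reads of the strands fell on opposite sides of the sites, the pattern of sequencing from the ends of fragments around a bound position. With positions measured from the GR centre at the high dose, starts of plus-strand GR reads at the low dose were most frequent from 50 to 25 bases before it and those of minus-strand reads from 25 to 50 bases after it. Of the plus-strand reads at the low dose, 74.2% (71.7 to 76.5%) started before the centre, against 23.4% (21.2 to 25.6%) of the minus-strand reads. At the high dose, whose own reads set the centre, the shares were 77.0% and 21.8%. Region by region, minus-strand reads started farther along the chromosome than plus-strand reads in 387 of 400 regions at the high dose, by 101.7 bases in the median region. At the low dose this held in 369 of the 396 regions with reads of both strands within 500 bases of the middle, by 93.3 bases in the median. These distances fall in the range of 50 to 140 bases at which both ends of fragments were paired, and the part of such pairs in them was not tested.

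IgG reads near the GR centre were few, and those of the minus strand lay differently at the doses. At the high dose, 56.5% (48.3 to 64.4%) of the 154 plus-strand and 30.4% (23.4 to 38.2%) of the 161 minus-strand IgG reads within 500 bases started before the GR centre, and both strands had a maximum near it. At the low dose the shares were 54.7% (43.6 to 65.4%) of 86 and 51.9% (40.5 to 63.1%) of 81 reads. The part of this IgG signal in the GR counts of the regions was not tested.

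**Figure D4:**
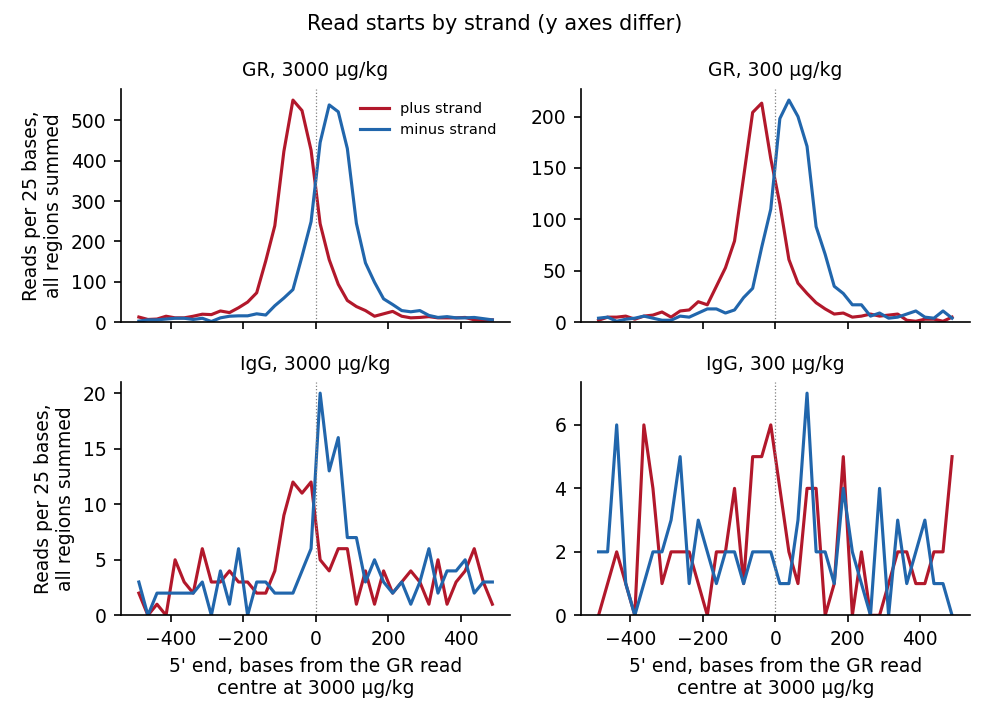
Read starts by strand (y axis, reads per 25 bases summed over the 400 regions; the scale differs between panels) by distance in bases from the GR read centre at the high dose (x axis), for each library. In both GR libraries the plus-strand maximum lies before the centre and the minus-strand maximum after it, and each strand of the IgG library at the low dose reaches 6 or 7 reads at most.

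The GR signal of the regions fell steeply within 1 kb of their edges. In the first 500 bases from the edge of a region GR held 1.29 reads per bin at the high dose (1.22 to 1.38) and 0.458 at the low dose (0.412 to 0.507), against 0.245 and 0.195 for IgG. From 0.5 to 1 kb GR held 0.425 (0.381 to 0.473) and 0.224 (0.192 to 0.259) reads per bin. From 2.5 to 5 kb GR at the low dose, at 0.143 (0.131 to 0.155), could not be told from IgG of the same dose at 0.140 (0.129 to 0.153). At the high dose GR stayed above IgG, with 0.233 (0.218 to 0.249) against 0.137 (0.126 to 0.149) at this distance and 0.217 (0.207 to 0.228) against 0.132 (0.124 to 0.140) from 5 to 10 kb. At that greater distance GR at the low dose held 0.145 (0.137 to 0.153) reads per bin and its IgG library 0.127 (0.119 to 0.135). These intervals did not overlap, so GR lay somewhat above IgG there at the low dose also.

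The surroundings of the regions were rich in reads of every library. From 5 to 10 kb away the IgG libraries still held 1.56 and 1.51 times their means per bin at the high and the low dose, and the GR libraries 2.56 and 1.71 times theirs. Around 650 regions seen only at the high dose, defined by 7 or more GR reads at the high dose, 0 at the low dose and at most 2 IgG reads (667 bins, 0.0123%), the corresponding values were 1.43, 1.43, 2.21 and 1.61 times the mean, each lower than around the shared regions. For GR at the high dose the intervals did not overlap, at 0.217 (0.207 to 0.228) reads per bin around shared and 0.188 (0.181 to 0.196) around high-dose-only regions, while for the other 3 libraries they did. From 2.5 to 5 kb the values stood in reverse order in all libraries but IgG at the low dose, with overlapping intervals in each of those libraries. For IgG at the low dose the intervals did not overlap, at 0.1405 (0.129 to 0.153) reads per bin around shared and 0.1195 (0.111 to 0.128) around high-dose-only regions. GR at the high dose stood there at 2.84 times the mean around high-dose-only and 2.75 around shared regions. In the same order, GR at the low dose stood at 1.81 and 1.69. IgG stood at 1.69 and 1.62 at the high dose and at 1.42 and 1.67 at the low dose. What part the rich surroundings have in the counts of the regions was not tested.

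**Figure D5:**
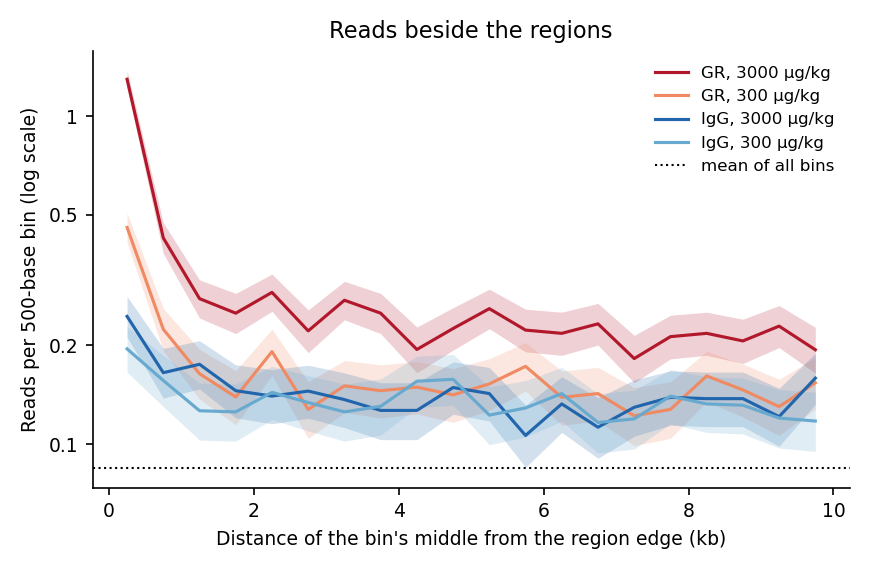
Reads per 500-base bin (y axis, log scale) by distance of the bin from the edge of a region in kb (x axis), for each library, with shaded exact 95% Poisson intervals and the mean over all bins as a dotted line. Bins of other regions were left out. From 2.5 to 5 kb GR at the low dose overlaps with IgG of that dose. From 5 to 10 kb GR stays at 0.217 reads per bin at the high dose, above IgG of that dose. At the low dose GR stands at 0.145 there, with an interval that barely clears that of IgG.

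Shared regions were compared at equal strength with those of the high dose only, first in the high-dose libraries. Some high-dose-only regions directly adjoined bins with GR reads at both doses, which enter the counts beside them. Of 2 chosen after their values were seen, chr2:58441001-58441500 adjoined the shared region chr2:58441501-58442000. The other, chr1:156878001-156878500, adjoined a bin with 33 and 8 GR reads that the IgG limit had left out. Single-bin regions with 7 to 9 GR reads at the high dose numbered 139 among the shared and 456 among the high-dose-only. Beside them lay 1.86 GR reads per region at the high dose in the former and 1.85 in the latter, and the GR to IgG ratio there was 4.94 (3.65 to 6.79) and 5.10 (4.31 to 6.07). The median spread of reads was 82.4 and 88.3 bases (SD) and the median distance of strands 104.2 and 98.5 bases. With 10 to 14 reads the GR to IgG ratio beside the regions was 4.24 (3.17 to 5.77) in 108 shared and 5.11 (3.91 to 6.78) in 142 high-dose-only regions. With 15 to 29 reads it was 6.10 (4.74 to 7.95) in 118 and 8.14 (4.34 to 16.9) in 36 regions, beside which lay 3.69 and 2.50 GR reads per region. The intervals of the GR to IgG ratio overlapped in each class, which does not show that the sets are alike.

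In the GR library at the low dose, the intervals of the reads beside the regions did not overlap between the sets in 2 of the 3 classes. With 15 to 29 GR reads at the high dose, shared regions had 1.12 (0.936 to 1.33) GR reads at the low dose in the bins on each side and high-dose-only regions 0.583 (0.361 to 0.892), with IgG at about the same level in both sets (0.525 reads in the shared). The shared regions of this class were also somewhat stronger at the high dose, with a mean of 19.9 against 17.7 GR reads. With 7 to 9 reads the values were 0.820 (0.677 to 0.985) and 0.590 (0.522 to 0.665), against 0.266 and 0.270 IgG reads. With 10 to 14 reads the intervals overlapped, at 0.778 (0.620 to 0.963) and 0.641 (0.516 to 0.787). Since the sets were divided by GR reads at the low dose in the bins between, these neighbouring counts are a description and were not tested.

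The regions were spread over all 21 chromosomes used, at 1.47 per 10 Mb. Chromosome 1 held most, 37 regions, followed by chromosome 3 with 36, chromosome 5 with 28 and chromosome 10 with 26. Relative to length, chromosome 12 with 2.99 and chromosome 19 with 2.70 regions per 10 Mb were densest. On the X chromosome, present in a single copy in male animals, only 1 of 400 regions was found (0.25%, 0.00633 to 1.39%), against 2.56% of IgG reads and 6 of 650 high-dose-only regions (0.923%). It was chrX:8046001-8046500, with 7 GR reads at the high dose, 4 at the low dose, 2 IgG reads at the high dose and 0 at the low dose, the lowest GR counts the rule admits.

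Most shared regions stood alone. Only 18 of 400 (4.50%, 2.69 to 7.02%) lay within 20 kb of another, as 9 pairs and no larger group, against 55 of 650 high-dose-only regions (8.46%, 6.44 to 10.9%) within 20 kb of one of their own kind. The denser set has more members, so that these shares are not on an equal footing. A bin with 7 or more GR reads at the high dose and low IgG, whatever its count at the low dose, lay within 20 kb of 79 shared regions (19.8%, 15.96 to 24.0%) and of 131 high-dose-only regions (20.2%, 17.1 to 23.5%). Among single-bin regions of equal strength the share was lower for shared regions in each class, with overlapping intervals. With 7 to 9 GR reads at the high dose it was 16.6% (10.8 to 23.8%) against 17.3% (13.96 to 21.1%), with 10 to 14 reads 12.04% (6.57 to 19.7%) against 22.5% (15.95 to 30.3%), and with 15 to 29 reads 25.4% (17.9 to 34.3%) against 38.9% (23.1 to 56.5%).

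The closest pair joined a region strong at both doses to one at the low-dose threshold. On chromosome 1, chr1:77410001-77410500 with 60 and 20 GR reads lay 1500 bases from chr1:77412001-77412500 with 18 and 4. The pair without any IgG read and with the smallest gap was on chromosome 3, where chr3:87831001-87831500 held 20 GR reads at the high dose and 5 at the low dose, and chr3:87834501-87835000, 3000 bases on, held 10 and 7. The ratios of doses of this pair were 3.98 (1.45 to 13.6) and 1.42 (0.489 to 4.401), with overlapping intervals.

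The 5 regions of joined bins held 14 to 63 GR reads at the high dose. Apart from that at chr1:226414501, they were chr1:69490501-69491500 with 22 and 9 GR reads at the high and the low dose, chr2:30120501-30121500 with 14 and 11, chr5:139546001-139547000 with 22 and 12, and chr14:84838501-84839500 with 32 and 10. In the last of these the centres of the doses lay 146.3 bases apart, against 9.0 to 63.6 bases in the other 4.

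Plus-strand reads were often followed by a minus-strand read 50 to 140 bases on, as both ends of a fragment would be. Such pairs took in 30.4% of GR reads at the high dose and 37.0% at the low dose over the genome, and 52.8% and 41.0% of IgG reads. Within the regions they took in 76.2% and 68.4% of GR reads, where reads of different fragments also lie close enough to be paired. Counted as fragments, with each pair taken once, the regions held 3747 and 1653 GR fragments and 133 and 68 IgG fragments, and the ratio of doses was 2.17 (2.05 to 2.30). On fragments 252 regions held 7 or more at the high dose, 205 held 4 or more at the low dose, and 146 (36.5%, 31.8 to 41.4%) met the whole rule. Just 35 regions held 2 or fewer GR fragments at the low dose. The strong regions kept high counts: the 10 with most reads at the low dose held 9 to 14 fragments at that dose and 12 to 42 at the high dose.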

How the data were processed

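Each line of the deposited files is 1 aligned read counted as 1, and the values used are therefore counts of reads, without normalization. Per the submitters' processing notes, the build was rn4, and bedtools and MACS are listed without a role or version. All libraries held 468802 reads and 0 positions with more than 1 read per strand, and the step that made the totals equal, like the aligner and its filters, is not given in the sources. Per the labels' protocols, 18 rounds of amplification were used at the high dose, and no preparation is described for the low dose.

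Regions were found by the rule in the report. Groups came from the sample titles. Reads were counted with Python 3.11.15, numpy 2.4.6, pandas 2.3.3 and scipy 1.17.1, and ratios were scaled to the reads used per library. Fragments were made by joining a plus-strand to a minus-strand read 50 to 140 bases on, each read once. The procedure was tested on simulated reads with planted sites. These had an even background, no IgG signal at the sites and no paired ends within them, unlike the libraries here. The simulation therefore checks the calculation only. Named regions were the 10 with most GR reads at each dose, the 5 lowest and 5 highest ratios and the linked group with most regions (of 9 equal pairs, the one with fewest IgG reads), with ties settled by fewer IgG reads, then by position. Regions of 3 or more bins were also to be named, and there were 0. The joined pairs of bins, the X region, the closest pair, the regions with distant centres and those the IgG limit left out were named after their values were seen. The members and the rules were chosen with earlier results of these data known. With 1 library per group no test was made. Nearby genes and sequence motifs were not analysed here, since no genome or annotation of the build was used.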

Additional observations from a re-analysis of the deposited data

Results flagged for a closer look

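The rule was also applied to unplaced sequences of the build, whose reads were used nowhere above. It kept 6 regions, with 79 GR reads at the high dose, 30 at the low dose and 4 and 0 IgG reads, whereas 2 bins were kept with the roles of GR and IgG exchanged. The rule chose these regions on their own counts, and their share of all unplaced bins was not computed. On the chromosomes used above the rule kept 405 bins, against 10 with GR and IgG exchanged, a wider gap than here. The strongest unplaced region held 27 GR reads at the high dose, 4 at the low dose and 0 IgG reads.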

How the results depend on the processing

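Over shifts of 0, 50 and 100 bases, the 5 main values (number of regions, share of high-dose bins that were shared, ratio of doses, distance of centres and share within 20 kb) stayed within their counting intervals, or, for the number, within 1.5 times, with 387 to 414 regions. Bins starting at position 250 gave 386 regions, which overlapped 263 of the 400 (65.8%). Bins of 1000 bases gave 489 regions, a share of 20.9% and a distance of 43.7 bases. At least 10 and 6 GR reads left 128 regions, with a share of 14.8%, a distance of 27.1 bases and 1.56% within 20 kb. Without any IgG read 212 regions were left, with a share of 15.97%, a ratio of 2.28 and 1.89%; without the IgG limit 7.16% lay within 20 kb. Counting fragments gave 172 regions, 146 of them among the 400, and a ratio of 2.24. Exchanging GR and IgG gave 10 regions. The distance was 25.5 bases with median positions and 23.9 bases with 10 or more reads in each GR library. The ratio in the 500 bases on each side, in bins that had failed the rule, was 2.82; this was chosen after seeing the data. Fewer regions follow from stricter limits; for the other changes the cause was not tested. No paired analysis was possible because each group held 1 library. With 4 reads at the low dose in 132 bins, the depth limits any single ratio.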
